A study of Sus scrofa with 29 samples.

Results

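The RNA described here came from the inner lining of the brachial artery, the main artery of the foreleg, of exercise-trained and sedentary pigs. The brachial arrays were found by their titles and numbered 14 of the 29 arrays of the series, 7 from exercised and 7 from sedentary pigs, each pig giving 1 brachial array. The exercised pigs followed a treadmill programme of 16 to 20 weeks, reaching its full load by week 10 with bouts on 5 days a week, each lasting 85 min and divided into a 5 min warm-up, 15 min at sprint speed, 60 min at endurance speed and a final 5 min of slow running. The sedentary pigs stayed in their enclosures. The labels describe the animals as pigs without naming a transgene, and all of them were sedated with ketamine and Rompun and anaesthetised with a barbiturate before the arteries were removed. Tissue was taken about 24 h after the last bout. The opened artery was wetted with a lysis reagent and its luminal surface scraped, which enriches for endothelial cells but does not isolate them. The other 15 arrays of the series held scrapes of the internal mammary artery, which runs inside the chest wall, 8 from exercised and 7 from sedentary pigs, and 14 pigs gave both arteries. The labels gave no sex, strain or age.

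The endothelium is the single layer of cells that faces the blood. It senses the shear of flowing blood, releases vasodilators such as nitric oxide and prostacyclin, keeps clotting and plasminogen activation in balance, and decides which leukocytes adhere and pass into the wall. Repeated bouts of running raise blood flow in the arteries of working limbs, and artery linings of trained animals are studied for lasting changes in these functions. The comparison asked which transcripts of the brachial lining differed between exercised and sedentary pigs at rest.

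Each array gave 23999 probe sets after 124 control probe sets were set aside, and a value is the log2 array intensity as deposited. Array medians lay between 7.13 and 7.19 and correlations between brachial arrays between 0.979 and 0.994. For 8 measures (RNA, array and the date in the labels) the exact permutation test of the group difference did not pass (smallest p = 0.391, adjusted p = 0.841). Among them, the 28S/18S ratio was 1.41 ± 0.17 (SD, n = 7) in exercised and 1.38 ± 0.20 (SD, n = 7) in sedentary pigs. The scrapes carried the endothelial markers PECAM1, with means of 13.96 and 13.91 in exercised and sedentary pigs, and CDH5, with means of 12.30 and 12.48. They also carried smooth muscle RNA, since the mean of 12 smooth muscle markers ran from 10.8 to 12.6 in exercised and from 10.9 to 13.0 in sedentary pigs. Several cell types therefore contributed to each value, and in such a scrape fewer cells of a type and less RNA per cell cannot be told apart. By the date given for each pig in the labels, which do not say of what, the first 7 pigs held 3 exercised and 4 sedentary animals, and the last 7 held 4 and 3.

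Training was associated with 122 passing probe sets in the brachial lining at an adjusted p under 0.05 (limma, Benjamini-Hochberg over all 23999), which is 0.508% of those tested. Of these, 80 were higher (0.333%) and 42 lower (0.175%) in exercised pigs. Counts of passing list members given below are to be read beside these shares. The lists and their members were chosen with earlier results of these data known, so such counts describe the lists and are not independent support. The median size of the 122 changes was 0.604 on the log2 scale, against 0.0961 over all probe sets. Of the 122, 21 exceeded 1 in size, 13 of them rises and 8 falls. In 62 of 122 the groups did not overlap at all, as was true of 145 of all probe sets tested (0.604%). By symbol the passing probe sets held 68 genes, 43 higher and 25 lower, while 48 probe sets had no single symbol (none or several). At an unadjusted p under 0.05 there were 3229 probe sets (13.5%), with 7.66% of those tested higher and 5.80% lower. In the first 7 pigs alone 1 probe set passed and in the last 7 alone 0 passed (limma), with 2642 and 2016 at an unadjusted p under 0.05. The changes of all 122 kept their direction in each period. Both periods are parts of the same arrays that chose these probe sets, so values by period, here and below, are not replication. When the internal mammary arrays were added, with the pig as a random replicate block, 392 (1.63%) passed in the brachial artery, among them 107 of the 122.

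**Figure D1:**
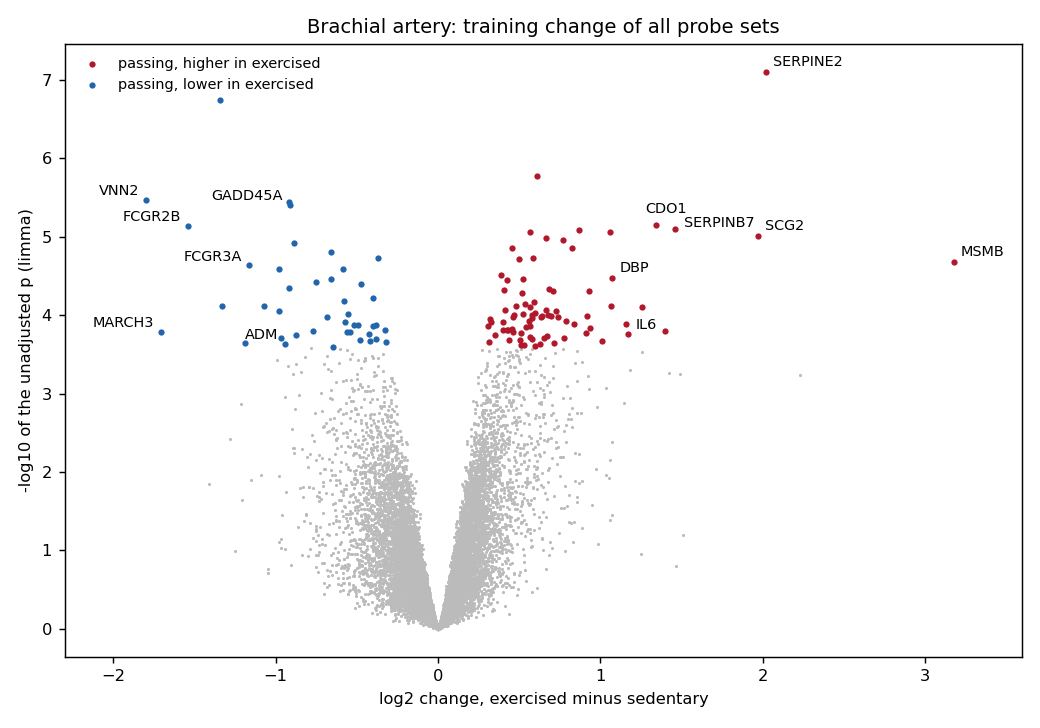
Each point is 1 of 23999 probe sets of the brachial arrays, with the log2 change (exercised minus sedentary) on the x axis and -log10 of the unadjusted limma p on the y axis. The 80 passing rises are red and the 42 passing falls blue, with SERPINE2 highest (log2 change 2.02) and MSMB farthest to the right (3.18).

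The pigs were not alike within a group. In 44 of the 122 passing probe sets exercised pig 15_4 was the exercised animal nearest the sedentary side, and in 28 it was pig 14_3, while pig 15_2 was nearest in 1 and pig 12_5 in 3. Among sedentary pigs, 10_2 lay nearest the exercised side in 32 and 12_3 in 10. Without exercised pig 15_4 the number passing rose to 268, and without exercised pig 15_2 it dropped to 9. Leaving out any other single pig gave between 18 and 85, the former without exercised pig 12_5. Genes named below that passed in all 14 of these fits were SERPINE2, CDO1, VNN2, FCGR2B, GADD45A and FGD4. The calls of FAM13A, ELOVL6, SCAP, BMP1, NNAT, RPS27, DBN1, SSH1, PIK3AP1, CCT6A, EGLN1, A2M and LMNB1 held in only 1 to 5 of the 14.

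The largest rise was that of MSMB, a small secreted protein best known as a major product of the prostate. Its log2 value ran from 8.60 through a median of 9.34 to 12.5 in sedentary and from 12.2 through 12.9 to 13.9 in exercised pigs. The exercised animals were close together, whereas among the sedentary ones 5 lay under 10 and pigs 11_4 and 17_1 stood above them at 11.29 and 12.47, the latter inside the exercised range. The change was 3.18 ± 0.53 (SE), or 9.05-fold, with an adjusted p = 0.0218. It missed the threshold without exercised pig 10_5, 12_5 or 15_2, with adjusted p up to 0.0635 and changes from 2.96 to 3.61.

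SERPINE2, protease nexin-1, is a serpin that inhibits thrombin and plasminogen activators at the cell surface. Sedentary values were 9.09 at the lowest, 9.96 at the median and 10.3 at the highest, and exercised values 11.4, 11.9 and 12.5. The groups were apart by about as much as either group's own range, and the change was 2.02 ± 0.21, or 4.05-fold (adjusted p = 0.0019, the smallest of the comparison). It was 2.05 in the first 7 pigs and 1.98 in the last 7, both parts of the arrays that gave the call.

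SERPINB7, another serpin, intracellular and also called megsin, rose from 3.26, 3.94 and 4.59 (lowest, median and highest) to 4.83, 5.25 and 6.06. These values lay near the lower end of the array's scale. No value was shared by both ranges (change 1.46 ± 0.22, 2.75-fold, adjusted p = 0.0175, and 0.0527 without exercised pig 15_2). The other measured genes of serpins and plasminogen activation moved less. Of 20 in that list 2 rose, 0 fell and 18 did not pass, where 0.333% of all probe sets rose. Its median was 0.09 against 0.01 over all probe sets. Tissue plasminogen activator PLAT had a change of 0.69 ± 0.23 (adjusted p = 0.194), the collagen chaperone SERPINH1 -0.39 ± 0.13 (adjusted p = 0.206), and the tissue factor pathway inhibitor TFPI 0.80 ± 0.36 (adjusted p = 0.35). Thrombomodulin (THBD), the endothelial cofactor that turns thrombin toward protein C, had a change of -0.33 ± 0.14 (adjusted p = 0.299).

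SCG2, secretogranin II, is a granin of dense-core secretory vesicles that is cleaved to secretoneurin. Its sedentary values ran from 3.93 through 4.42 to 5.25, near the lower end of the array's scale, and its exercised values from 4.97 through 6.82 to 7.25. A single exercised animal, pig 15_4 at 4.97, fell within the sedentary range. The change was 1.97 ± 0.31 (3.92-fold, adjusted p = 0.0176), with 2.51 in the first 7 and 1.40 in the last 7 pigs, and it narrowly missed the threshold without exercised pig 15_2 (adjusted p = 0.0527).

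CDO1, cysteine dioxygenase, which oxidises cysteine on the way to taurine, went from 9.38, 10.3 and 10.4 in sedentary to 10.8, 11.3 and 11.7 in exercised pigs (lowest, median and highest). The sedentary animals fell into 3 pigs between 9.38 and 9.44 and 4 between 10.3 and 10.4, all below every exercised one (change 1.34 ± 0.20, 2.53-fold, adjusted p = 0.0175). CDA, cytidine deaminase of pyrimidine salvage, rose by 0.92 ± 0.18, and SULT1A3, a sulfotransferase that conjugates catecholamines, rose by 0.74 ± 0.14 (adjusted p = 0.0387 for both). When a pig was left out, CDA passed in 2 and SULT1A3 in 4 of 14 fits. ALDOC, an aldolase of glycolysis, rose by 0.71 ± 0.13 (adjusted p = 0.0312, passing in 6 of the 14 fits). Its values lay between 8.50 and 9.04 in sedentary and between 8.91 and 9.85 in exercised pigs. It was the 1 passing member of 19 glycolysis genes, whose median was 0.03, where 0.333% of all probe sets rose.

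SIRT3, the main deacetylase of the mitochondrial matrix, rose by 0.57 ± 0.09 (adjusted p = 0.0175), from 8.18, 8.39 and 8.61 to 8.71, 8.94 and 9.22 (lowest, median and highest). Its groups did not overlap, and it missed the threshold in 1 of 14 fits, without exercised pig 15_2 (adjusted p = 0.0527). It was the 1 riser among 25 genes of fatty acid oxidation and mitochondrial regulation, where 0.333% of all probe sets rose. The other 24 did not pass, and the list's median was 0.03. The coactivator PPARGC1A, a known regulator of mitochondrial content, had a change of 0.23 ± 0.08 (adjusted p = 0.235). Of 48 genes of oxidative phosphorylation 0 rose and 1 fell, with a median of -0.01. The faller was ATP5J, coupling factor 6 of ATP synthase, at -0.58 ± 0.10 (adjusted p = 0.024), and its other probe set gave 0.21 ± 0.13 (adjusted p = 0.534), the opposite sign.

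Lipid genes among the rises included ELOVL6, which elongates palmitate, with 3 of its 4 probe sets passing (0.58 ± 0.11, adjusted p = 0.0387, for the one of smallest p), and ACOT13, a thioesterase (0.50 ± 0.08, adjusted p = 0.0211). A second probe set of ACOT13 gave 0.25 ± 0.09 (adjusted p = 0.225). SCAP, the escort protein that carries sterol-regulatory factors to the Golgi, rose by 0.66 ± 0.13 (adjusted p = 0.0387), and its groups did not overlap. These 3 fell outside the rule for naming genes and were chosen after their values were seen. Among 13 genes of cholesterol synthesis and uptake 0 passed, yet 12 of 13 changes were positive, with a median of 0.35 against 0.01 over all probe sets, of which 53.4% were positive. The sterol demethylase CYP51 had 0.66 ± 0.14 (adjusted p = 0.0538) and squalene synthase FDFT1 0.57 ± 0.14 (adjusted p = 0.0719). With the pig as a block over both arteries these became adjusted p = 0.0082 and adjusted p = 0.0289. In that fit 3 of the 13 passed, against 1.63% of all probe sets. Squalene epoxidase SQLE had the largest value of the list, 0.75 ± 0.26 (adjusted p = 0.209).

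Among the other rises, LGALS3, galectin-3, a lectin that binds beta-galactosides, went from 10.6, 11.1 and 11.4 to 11.7, 11.7 and 12.1 (0.77 ± 0.12, adjusted p = 0.0176). FKBP1B, which binds ryanodine receptor calcium channels, rose by 0.83 ± 0.13 (adjusted p = 0.0187), and PIK3IP1, an inhibitor of phosphatidylinositol 3-kinase, by 0.67 ± 0.10 with both of its probe sets passing (adjusted p = 0.0176). A second probe set of FKBP1B gave 0.40 ± 0.09 (adjusted p = 0.0725). SERINC2, a membrane protein of the serine incorporator family, rose by 0.87 ± 0.13 (adjusted p = 0.0175). These 4 missed the threshold only without exercised pig 15_2, with adjusted p from 0.0502 to 0.0593. TMEM25 rose by 1.06 ± 0.20 and TUSC3, a subunit of the oligosaccharyltransferase, by 0.93 ± 0.19, passing in 6 and 3 of 14 fits with a pig left out. FAM13A rose by 0.84 ± 0.16 and did not pass with the replicate block (adjusted p = 0.0654). PIK3IP1 lay outside the naming rule and was picked after its values were seen.

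**Figure D2:**
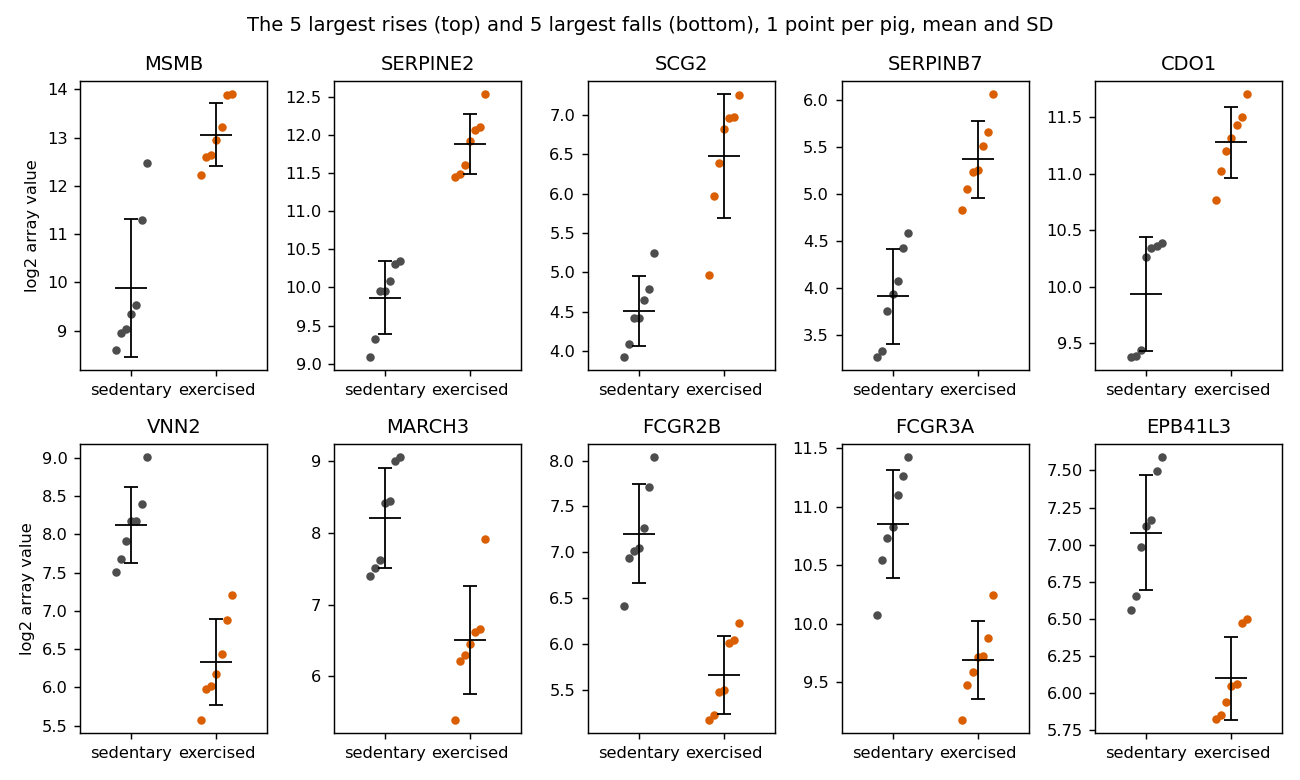
Each point is the log2 value of 1 pig, grey for the 7 sedentary and orange for the 7 exercised animals, with the group mean as a bar and the SD as whiskers. The groups overlap in MSMB, SCG2, MARCH3 and FCGR3A and are apart in SERPINE2, SERPINB7, CDO1, VNN2, FCGR2B and EPB41L3.

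DBP, a transcription factor and output of the circadian clock whose level follows the clock's E-box activators, was also among the largest rises. It ran from 8.59 through 9.25 to 9.91 in sedentary and from 9.92 through 10.2 to 10.6 in exercised pigs. The ranges nearly met without overlapping, and the change was 1.07 ± 0.19 (2.1-fold, adjusted p = 0.0277), lost without sedentary pig 17_1 or exercised pig 10_5, 11_3, 12_5 or 15_2. Of 12 clock genes 1 rose and 0 fell, and 6 of 12 changes were positive, with a median of 0.08. The deubiquitinase USP2, another output of the clock, had a larger change of 1.42 ± 0.33 (adjusted p = 0.0638, and 0.0123 with the replicate block). With the period by date as a factor USP2 passed (adjusted p = 0.0489), and 2 of the 12 genes rose and 1 fell. The positive-limb factor ARNTL (BMAL1) pointed the other way at -1.28 ± 0.37 (adjusted p = 0.14), with -0.96 in the first 7 and -1.92 in the last 7 pigs. The negative-limb genes CRY2 and PER1 had 0.40 ± 0.20 and 0.18 ± 0.13 (adjusted p = 0.403 and adjusted p = 0.591). The hour of the day at which each pig was sampled was not among the labels, and its part in these values was not tested.

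IL6, a cytokine made by endothelium, muscle and leukocytes, rose by 1.17 ± 0.24 (2.25-fold, adjusted p = 0.0431). Sedentary values ran from 6.11 through 7.33 to 7.72 and exercised values from 7.47 through 8.38 to 8.83. A single exercised animal, pig 15_4, lay within the sedentary range. This call was fragile, since it held in 1 of 14 fits with a pig left out, the one without 15_4, and did not pass with the replicate block (adjusted p = 0.144). Of 21 adhesion molecules and cytokines IL6 was the 1 that rose, 0 fell, and the median was -0.15, which was -0.00 without sedentary pig 12_3. The chemokines CCL4 and CCL2, which attract monocytes, had changes of -0.98 ± 0.34 (adjusted p = 0.209) and -1.21 ± 0.48 (adjusted p = 0.274). CCL2 ran from 7.27 to 11.4 in sedentary and from 7.31 to 8.12 in exercised pigs, and without sedentary pig 12_3 its change was -0.80. VCAM1, the adhesion receptor for monocytes, had 0.11 ± 0.24 (adjusted p = 0.888), with -0.07 in the first 7 pigs, -0.03 without sedentary pig 10_2 and 0.30 without sedentary pig 12_3.

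The named gene with the largest fall was VNN2, a vanin anchored to the membrane of leukocytes. It fell from 7.51, 8.17 and 9.01 to 5.57, 6.17 and 7.20 (change -1.80 ± 0.26, 3.47-fold, adjusted p = 0.0158). FCGR2B, the inhibitory receptor for IgG, fell from 6.41, 7.04 and 8.04 to 5.17, 5.49 and 6.23 (-1.54 ± 0.23, 2.91-fold, adjusted p = 0.0175). In both genes the lowest sedentary pig lay above the highest exercised pig. FCGR3A, the activating receptor of natural killer cells and macrophages, ran from 10.1 through 10.8 to 11.4 in sedentary and from 9.18 through 9.72 to 10.2 in exercised pigs. Its ranges overlapped narrowly (-1.17 ± 0.20, adjusted p = 0.023), and it missed the threshold without sedentary pig 17_1 or exercised pig 12_5 or 15_2. A second probe set of FCGR3A gave -0.42 ± 0.16 (adjusted p = 0.266).

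In the list of Fc receptors and leukocyte signalling, 0 of 18 measured genes rose, 4 fell and 14 did not pass, where 0.175% of all probe sets fell. The median was -0.60, and 1 of 18 changes was positive, against 53.4% of all probe sets. Leaving out a pig gave between 1 fall, without sedentary pig 17_1 or exercised pig 12_5 or 15_2, and 6 falls, without sedentary pig 10_2. Beside the 2 receptors the falls were those of CD53, a leukocyte tetraspanin, and BLNK, an adaptor below the B cell receptor. CD53 fell from 8.33, 9.00 and 9.66 to 7.46, 7.93 and 8.33 by the probe set that stands for it in the list (-1.07 ± 0.20, adjusted p = 0.0387), and by a second one with groups apart (-0.92 ± 0.16, adjusted p = 0.0312). BLNK fell from 6.36, 7.10 and 7.50 to 5.67, 6.15 and 6.69 (-0.98 ± 0.19, adjusted p = 0.0387). With a pig left out, BLNK passed in 3 and the first CD53 probe set in 6 of 14 fits, with adjusted p up to 0.09. Exercised animals lay lower in each, with slight overlap for BLNK and for the first CD53 probe set. PLEK, a substrate of protein kinase C in platelets and leukocytes, had -0.99 ± 0.22 (adjusted p = 0.0548), and FCER1G, the signal chain shared by Fc receptors, had -0.89 ± 0.21 (adjusted p = 0.0638). PTPRC, the common leukocyte antigen CD45, had -0.13 ± 0.13 (adjusted p = 0.72), and LAPTM5, the lysosomal protein of blood cells, -0.15 ± 0.15 (adjusted p = 0.717). With the replicate block 8 of the 18 fell, where 1.63% of all probe sets passed in either direction. By an ordinary statistic without pooling of the spread 1 of the 18 fell.

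The list of macrophage markers shares 3 genes with the Fc receptor list (FCER1G, TYROBP and LAPTM5). Of 11 macrophage markers 0 rose, 0 fell and 11 did not pass, while 10 of 11 changes were negative and the median was -0.44. C1QC, a chain of complement C1q, had -0.82 ± 0.18 (adjusted p = 0.0538) with groups that did not overlap, and TYROBP, the adaptor DAP12, had -0.68 ± 0.15 (adjusted p = 0.0623). With the replicate block both passed, at adjusted p = 0.0228 and adjusted p = 0.0259. The mean of the 11 markers ran from 8.09 through 8.29 to 8.98 in sedentary and from 7.74 through 7.98 to 8.17 in exercised pigs. Sedentary pig 12_3 was highest at 8.98, and without it the list's median was -0.18 and that of the Fc receptor list -0.53. With the mean of the macrophage markers as a covariate the Fc receptor list's median was -0.21, and 0 of 23999 probe sets passed by limma in either direction, with 2074 at an unadjusted p under 0.05. With it FCGR2B had -1.01 (adjusted p = 0.37), VNN2 -1.87 (adjusted p = 0.291), SERPINE2 1.71 (adjusted p = 0.237) and MSMB 3.24 (adjusted p = 0.352). The SE rose from 0.21 to 0.29 for SERPINE2 and from 0.53 to 0.77 for MSMB. The macrophage mean was itself lower in exercised pigs, so this fit cannot fully separate it from training. The part of macrophage content in the falls was not tested beyond these values.

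**Figure D3:**
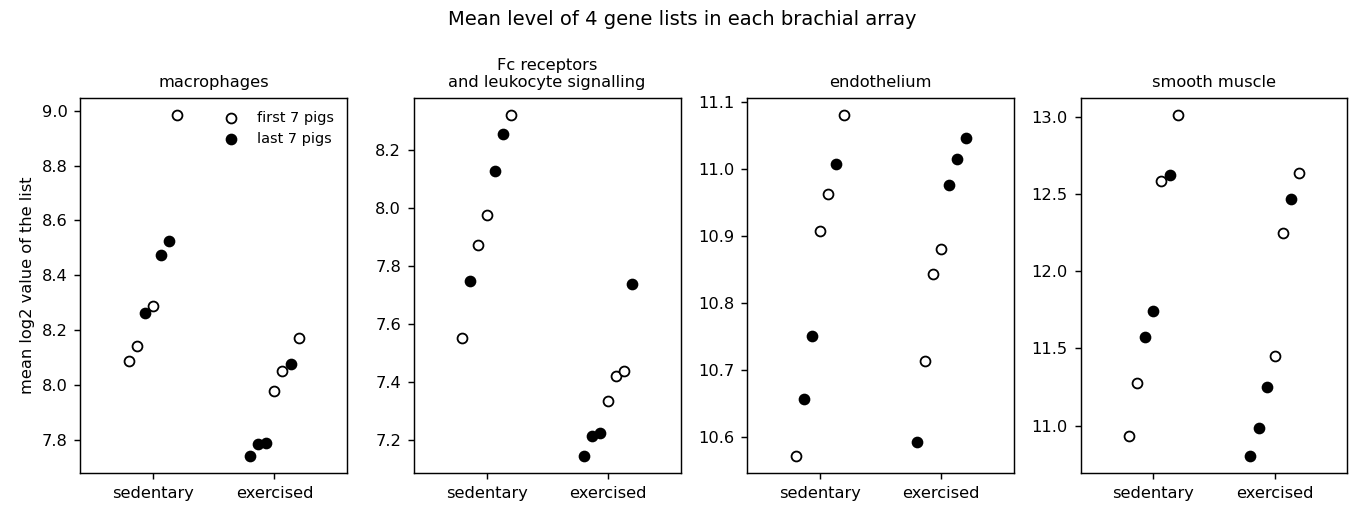
Each point is the mean log2 value of a gene list in 1 brachial array, for sedentary and exercised pigs, open for the first 7 pigs by date and filled for the last 7. The macrophage mean is between 8.09 and 8.98 in sedentary and between 7.74 and 8.17 in exercised pigs, whereas the endothelium mean covers 10.6 to 11.1 in sedentary and 10.6 to 11.0 in exercised pigs.

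T and NK cell markers (12) had a median of -0.14 with 0 passing, 5 neutrophil markers a median of 0.08, and the mast cell and B cell lists had 2 measured members each, with 0 passing. CD79B, part of the receptor complex of B cells, had 0.60 ± 0.21 (adjusted p = 0.22). Further falls were those of PIK3AP1, an adaptor that links receptors to phosphatidylinositol 3-kinase (-0.69 ± 0.13, adjusted p = 0.0387), and CPM, a membrane carboxypeptidase that trims peptides such as kinins (-0.66 ± 0.11, adjusted p = 0.0199). A second probe set of PIK3AP1 gave -0.11 ± 0.08 (adjusted p = 0.601). CPM ran from 6.67 through 7.11 to 7.37 in sedentary and from 6.17 through 6.41 to 6.60 in exercised pigs, without overlap. Of 6 subunits of the NADPH oxidase 0 passed, with a median of -0.25. RAC2, its leukocyte GTPase, had -0.53 ± 0.13 (adjusted p = 0.0779), and NCF1 had -0.30 ± 0.10 (adjusted p = 0.209). A second probe set of RAC2 gave -0.09 ± 0.09 (adjusted p = 0.735).

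Among falls outside leukocyte genes, MARCH3, a membrane-bound ubiquitin ligase, had the largest size. It ran from 7.40 through 8.42 to 9.06 in sedentary and from 5.39 through 6.44 to 7.91 in exercised pigs. Here 6 of 7 exercised pigs lay below all sedentary ones, and pig 15_4 at 7.91 lay within their range. The change was -1.71 ± 0.35 (3.27-fold, adjusted p = 0.0423), and it passed only without 15_4 when a pig was left out. It was the 1 faller among 44 genes of ubiquitin and the proteasome, of which 0 rose and whose median was -0.04.

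GADD45A, a stress gene of growth arrest, fell from 10.1, 10.7 and 11.0 to 9.54, 9.68 and 9.99 (-0.91 ± 0.13, adjusted p = 0.0158). Its change was -0.94 in the first 7 and -0.92 in the last 7 pigs, both parts of the arrays that gave the call. GADD45A was the 1 of 14 genes of growth arrest and p53 that fell, with 0 risers and a median of -0.04. The kinase PLK2 of the same list had -0.85 ± 0.19 (adjusted p = 0.0636). FGD4, an exchange factor for the GTPase Cdc42, fell from 7.42, 7.71 and 8.10 to 6.49, 6.78 and 7.20 (-0.92 ± 0.13, adjusted p = 0.0158). Both GADD45A and FGD4 had separate groups. EPB41L3, a protein that ties membranes to the actin skeleton, fell from 6.56, 7.12 and 7.59 to 5.82, 6.05 and 6.50 (-0.98 ± 0.17, adjusted p = 0.024). SSH1, the phosphatase that activates cofilin, fell by 0.97 on the log2 scale (SE 0.20, adjusted p = 0.0449, and 0.0819 with the replicate block), and RASGEF1B, an exchange factor for Ras-family GTPases, by 0.75 (SE 0.13, adjusted p = 0.0281) with 2 of its 3 probe sets passing.

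ADM, adrenomedullin, a vasodilator peptide made by endothelium, fell from 7.28, 7.89 and 8.51 to 6.25, 6.95 and 7.44 (-0.94 ± 0.20, adjusted p = 0.048), with a narrow overlap. The call held in 2 of 14 fits with a pig left out and did not pass with the replicate block (adjusted p = 0.103). SLC7A1, the transporter that brings arginine, the substrate of nitric oxide synthase, into the cell, fell from 8.84, 8.97 and 9.74 to 8.22, 8.37 and 8.81 (-0.64 ± 0.14, adjusted p = 0.0498), with groups apart by little. It passed only without 15_4 when a pig was left out. It was the 1 faller of 16 genes of nitric oxide and prostacyclin, 15 of which did not pass, with a median of -0.10. NOS3, the endothelial nitric oxide synthase, ran from 12.1 through 12.5 to 12.7 in sedentary and from 12.0 through 12.4 to 12.5 in exercised pigs (-0.11 ± 0.10, adjusted p = 0.672). PTGS1, the constitutive cyclooxygenase, had 0.45 ± 0.18 (adjusted p = 0.271), and NOSTRIN, which traffics NOS3 from the membrane, 0.36 ± 0.12 (adjusted p = 0.19).

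Of 10 shear-responsive genes 0 rose and 1 fell, which was ADM, with a median of -0.22. KLF2, the transcription factor induced by steady flow, had 0.37 ± 0.17 (adjusted p = 0.353), with 0.61 in the first 7 and 0.14 in the last 7 pigs and 0.23 without exercised pig 10_1, and KLF4 had 0.08 ± 0.19 (adjusted p = 0.897), between -0.03 and 0.17 with a pig left out. Endothelin EDN1 had -0.40 ± 0.25 (adjusted p = 0.531), or -0.23 without sedentary pig 12_3 and -0.24 without exercised pig 10_1, and none of 8 constrictor and angiotensin genes passed. ADM was likewise the 1 faller of 21 angiogenic and hypoxia factors, where 0 rose and the median was -0.08. The prolyl hydroxylase EGLN1, which marks hypoxia-inducible factors for breakdown, fell by a second probe set alone (-0.32 ± 0.07, adjusted p = 0.0462, and 0.154 with the replicate block). Antioxidant enzymes had 0 of 25 passing and a median of 0.08. PRDX5, a peroxiredoxin of mitochondria and peroxisomes, had 0.72 ± 0.15 (adjusted p = 0.0522, and 0.0119 with the replicate block). SOD2 had -0.38 ± 0.36 (adjusted p = 0.699), with 12.7 in sedentary pig 12_3 and no more than 10.6 in any exercised pig, and without that pig the change was -0.01.

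Among 36 measured genes of the heat shock and unfolded protein list there were 2 falls and 0 rises, and 34 did not pass. Over all probe sets 0.175% fell, and the list's median was -0.16. Of the 36 changes 6 were positive, against 53.4% over all probe sets. HSPA8, the constitutive Hsp70, fell from 12.1, 12.4 and 12.7 to 11.7, 11.9 and 12.1 (-0.52 ± 0.10, adjusted p = 0.0414), and its cochaperone DNAJA1 from 10.3, 10.9 and 11.1 to 10.1, 10.3 and 10.4 (-0.58 ± 0.11, adjusted p = 0.0386). The other 3 probe sets of HSPA8 gave -0.32, -0.25 and -0.12 (adjusted p from 0.522 to 0.833), and a second one of DNAJA1 gave -0.20 (adjusted p = 0.626). Both overlapped, and both were sensitive to single pigs, since HSPA8 passed in 2 and DNAJA1 in 4 of 14 fits with a pig left out. DNAJA1 did not pass with the replicate block (adjusted p = 0.0513). CCT6A, a subunit of the chaperonin TRiC, fell by another probe set than the one that stands for it in the list (-0.54 ± 0.11, adjusted p = 0.0423). The mean of the 36 genes ran from 10.98 through 11.11 to 11.39 in sedentary and from 10.89 through 10.95 to 11.03 in exercised pigs. With the macrophage covariate, itself lower in exercised pigs, the list's median was -0.02. In that fit HSPA8 had -0.58 and DNAJA1 -0.45 (limma adjusted p = 0.352 and 0.452). The part of macrophage content in these falls was not tested beyond these values.

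Of 25 interferon response genes 0 passed. Their median was 0.36, 23 of 25 changes were positive against 53.4% of all probe sets, and 10 had an unadjusted p under 0.05, against 7.66% of all probe sets in that direction. IFIT3, an antiviral protein induced by interferon, ran from 8.53 through 8.93 to 9.44 in sedentary and from 9.17 through 9.68 to 9.93 in exercised pigs (0.65 ± 0.15, adjusted p = 0.0666). IFI44L had 0.45 ± 0.11 (adjusted p = 0.0759) by the probe set that stands for it, 0.57 ± 0.12 by a second, which passed (adjusted p = 0.0441), and -0.16 ± 0.28 by the remaining one. The mean of the list ran from 8.53 to 9.28 in sedentary and from 8.77 to 9.64 in exercised pigs, so the groups overlapped broadly. Of 19 genes of the MHC and antigen presentation 0 passed, with 18 of 19 changes positive, against 53.4% of all probe sets, and a median of 0.09, which was 0.15 without sedentary pig 12_3. SLA-DMB, which loads peptide onto class II molecules, had 0.37 ± 0.13 (adjusted p = 0.195).

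**Figure D4:**
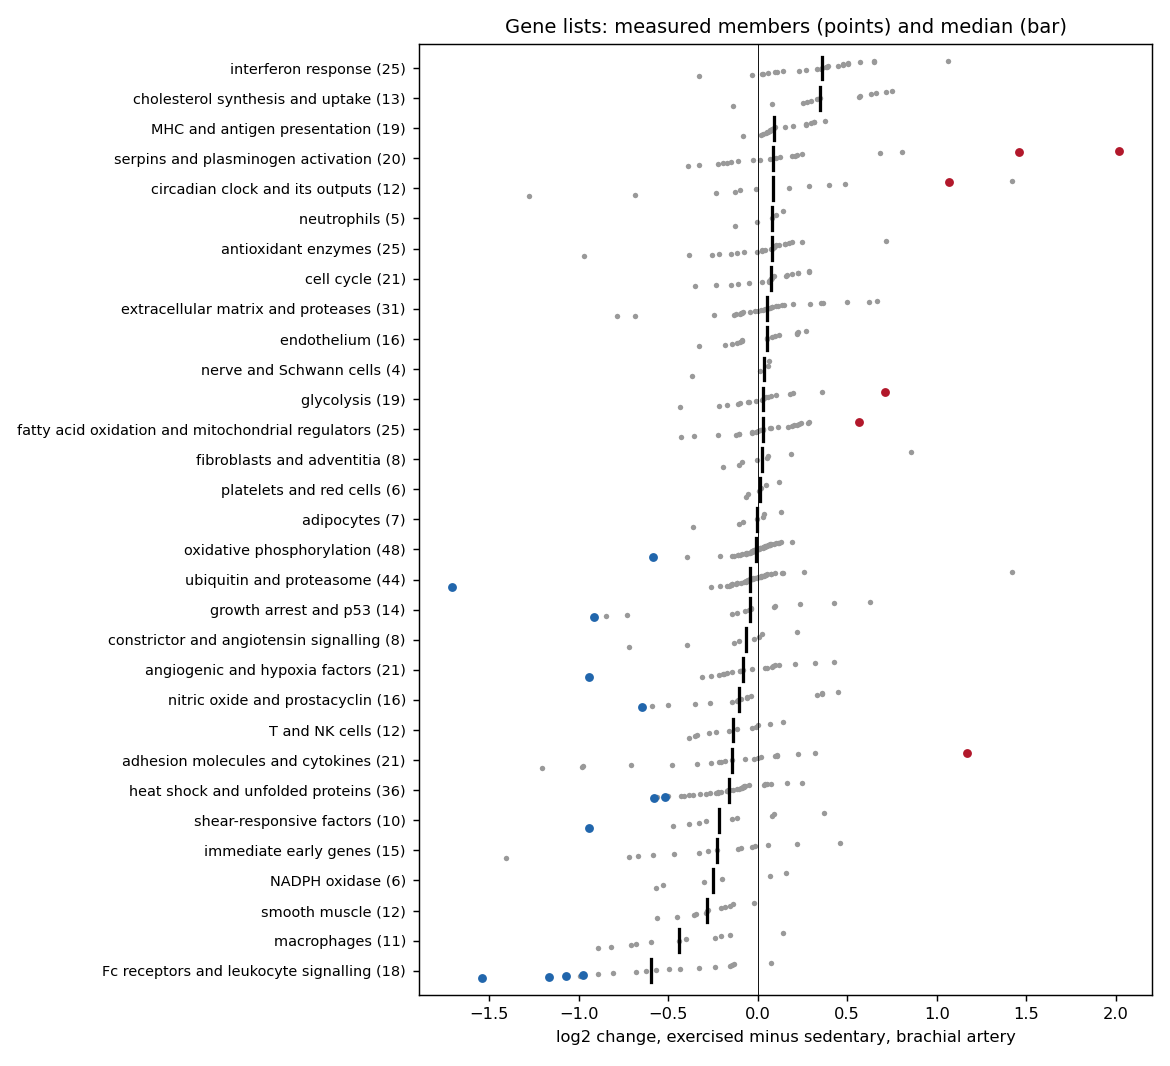
Points are the log2 changes (exercised minus sedentary) of the measured members of 31 gene lists with 4 or more members, with their number in brackets, and the bar is the list's median. Passing members are red (higher) or blue (lower). Medians run from 0.36 for the interferon response to -0.60 for Fc receptors and leukocyte signalling.

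Like those of macrophages, the cell type markers of the other lists showed no passing member. Of 16 endothelial markers 9 had positive changes and the median was 0.05. CLDN5, a claudin of endothelial tight junctions, had 0.27 ± 0.08 (adjusted p = 0.156), and PECAM1 had 0.05 ± 0.07 (adjusted p = 0.823). All 12 smooth muscle markers had negative changes with a median of -0.28, but that median was 0.14 in the first 7 pigs and -0.66 in the last 7, and the largest, PLN, had -0.56 ± 0.38 (adjusted p = 0.572). With the smooth muscle mean as a covariate 250 probe sets passed, among them 122 of the 122. Medians were 0.02 for 8 fibroblast markers, 0.03 for 4 nerve markers, 0.01 for 6 platelet and red cell markers and -0.00 for 7 fat cell markers. Lists of the extracellular matrix (31), immediate early genes (15) and the cell cycle (21) also had 0 passing members, with medians of 0.05, -0.23 (-0.13 without sedentary pig 12_3) and 0.07. COL8A1, a collagen of the subendothelium, came nearest at 0.50 ± 0.11 (adjusted p = 0.054, and 0.0218 with the replicate block), positive in 4 of 4 probe sets. In 20 of the 33 lists no member passed.

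The passing genes outside the naming rule numbered 32, 25 higher and 7 lower, and the following were picked after their values were seen. NNAT, an imprinted small membrane protein, rose by 0.32 ± 0.06 (adjusted p = 0.0392), from 6.06, 6.29 and 6.33 to 6.43, 6.56 and 6.68. BMP1, the protease that trims procollagen, rose by 0.60 ± 0.13 (adjusted p = 0.0496), and PTGR1, which inactivates prostaglandins and leukotriene B4, by 0.46 ± 0.07 (adjusted p = 0.0187). A second probe set of BMP1 gave 0.20 ± 0.11 (adjusted p = 0.452). DBN1, the actin-binding drebrin, rose by both of its probe sets (0.47 ± 0.09 and 0.64 ± 0.12, adjusted p = 0.0387 for each). Among the lower ones, A2M, the plasma protease inhibitor, fell from 13.5, 13.9 and 14.1 to 12.9, 13.3 and 13.5 (-0.56 ± 0.11, adjusted p = 0.0387, and 0.19 with the replicate block), and LMNB1, a lamin of the nuclear envelope, by 0.49 (SE 0.10, adjusted p = 0.0414, and 0.173 with the block). Other probe sets of A2M gave -0.78 ± 0.17 (adjusted p = 0.0508) and -0.11 ± 0.08 (adjusted p = 0.605). RPS27, a ribosomal protein, passed by 1 of its 2 probe sets (0.50 ± 0.10, adjusted p = 0.046), and the other gave -0.05 ± 0.05. Of the 48 passing probe sets with no single symbol 33 were higher and 15 lower. The one of smallest adjusted p stood at 7.42 ± 0.33 (SD, n = 7) in exercised and 8.76 ± 0.28 (SD, n = 7) in sedentary pigs (-1.34 ± 0.15, limma adjusted p = 0.0022).

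The last comparison asked whether the training change differed between the brachial and the internal mammary artery, whose arrays came largely from the same pigs. Fitted alone, the internal mammary arrays had 13 passing probe sets (0.0542%), 10 higher and 3 lower. By the interaction test over all 29 arrays with the pig as a random block, 0 of 23999 passed (0%), the smallest adjusted p was 0.227, and 1035 (4.31%) had an unadjusted p under 0.05. Of the 122 brachial probe sets 0 passed this test and 30 had an unadjusted p under 0.05. These 122 were chosen by the brachial change, which forms 1 side of the difference. With the pig as a fixed block the test likewise gave 0 passing and 1057 at an unadjusted p under 0.05. Without pig 10_1 the test with the random block gave 1 passing probe set, which has no single symbol (difference 0.50 ± 0.07, adjusted p = 0.00916).

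Side by side, several leading rises had like values in both arteries. SERPINE2 changed by 2.02 ± 0.21 in the brachial lining and by 2.11 ± 0.29 in that of the internal mammary artery (difference -0.10, limma adjusted p = 1), CDO1 by 1.34 ± 0.20 and 1.24 ± 0.30, and DBP by 1.07 ± 0.19 and 1.00 ± 0.21. SCG2 had 1.97 ± 0.31 and 2.66 ± 0.39 (difference -0.66, unadjusted p = 0.13). MSMB had 3.18 ± 0.53 and 2.41 ± 0.44 (difference 0.82, unadjusted p = 0.18). A p that misses the threshold does not show that the arteries responded alike. FCGR3A had -1.17 ± 0.20 against 0.15 ± 0.22 (difference -1.30, unadjusted p = 3.8e-05, adjusted p = 0.281), CD53 -0.92 ± 0.16 against 0.30 ± 0.25 (difference -1.20, unadjusted p = 0.00012, adjusted p = 0.367), and FCGR2B -1.54 ± 0.23 against -0.51 ± 0.18 (difference -1.01, unadjusted p = 0.00032, adjusted p = 0.631). CPM had -0.66 ± 0.11 against 0.18 ± 0.16 (difference -0.83, unadjusted p = 7e-05, adjusted p = 0.281). None of these differences passed, and the median of the Fc receptor list was -0.60 here against 0.06 in the internal mammary artery, without a test of that gap.

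**Figure D5:**
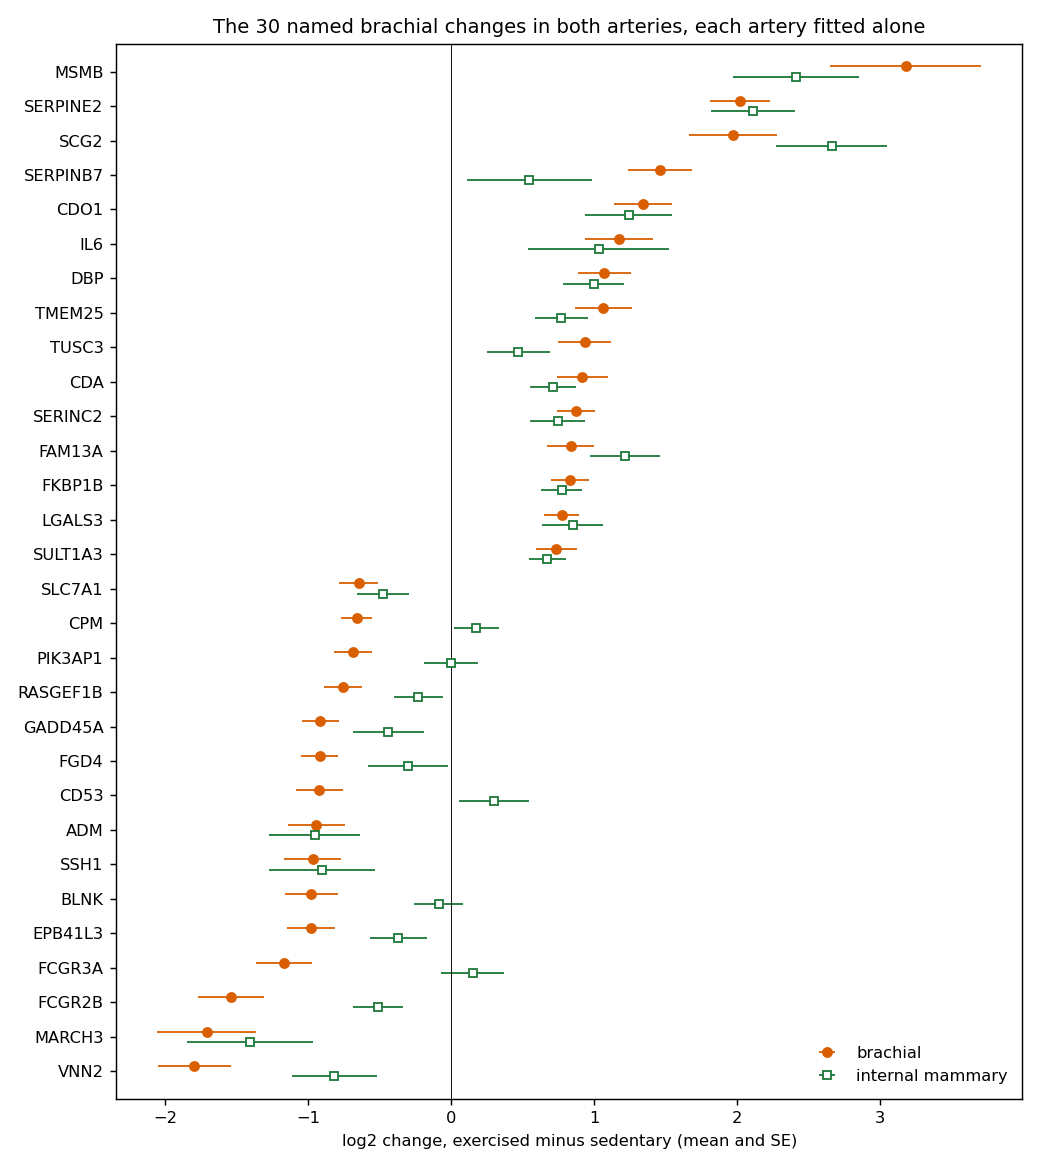
Log2 changes (exercised minus sedentary, points) with their SE (lines) for the 15 largest rises and 15 largest falls that passed in the brachial artery (filled circles), beside the internal mammary values (open squares), each artery fitted alone. The 15 rises are positive in both arteries, while FCGR3A, CD53 and CPM are below 0 in the brachial and above 0 in the internal mammary artery.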

How the data were processed

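The authors deposited 1 log2 intensity per probe set and array, made from 1-colour porcine oligonucleotide arrays of biotin-labelled, poly(A)-primed RNA. The submitters' processing notes name affy without a version. The summary method, background correction, normalization and genome build are not given in the sources used here, and scanner files were not used, so signal over background per probe is unknown. Groups came from titles and the treatment characteristic, also for 8 exercised internal mammary samples whose source name calls them sedentary.

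Control probe sets (124 of 24123) were left out. By the platform annotation 10069 of 23999 probe sets had 1 symbol, 198 several and 13732 none, giving 6765 genes, and the Entrez identifiers of 9961 were found in the reference gene table (used for names alone). All were tested, and genes were named from single symbols alone.

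The brachial arrays were fitted alone with limma 3.58.1 under R 4.3.3, as exercised minus sedentary, with moderated tests and Benjamini-Hochberg adjustment, threshold 0.05. The interaction used all 29 arrays, 4 group means and the pig as a random block (consensus correlation 0.255). The pairing of arteries by pig is stated in the labels. The series design text says that 1 pig has only a brachial array, whereas by title 1 exercised pig has only an internal mammary array. Titles were followed. As a check, a pig's arteries correlated at a median of 0.190 after removing group means (lowest -0.367) against -0.0230 between pigs, and the own pair was best in 7 of 14. After ±, changes carry their SE and means their SD. Labels name pigs, so each array is 1 animal, and the number of arrays limits precision.

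Named genes were the 15 largest passing rises and falls, passing list members (where fewer than 2 passed, up to 2 members by smallest p) and the fixed vascular genes NOS3, EDN1, KLF2, KLF4, THBD, SOD2, VCAM1 and CCL2. PTGIS was fixed as well, but no probe set carried its symbol alone. Any gene described outside the rule, such as PLAT, SERPINH1, TFPI, PPARGC1A, SQLE, ARNTL, CRY2, PER1, PTPRC, LAPTM5, PLEK, FCER1G, PTGS1, NOSTRIN or PECAM1, was picked after its values were seen. Some genes of the rule were not described. Among them were NR4A3 (-1.41, limma adjusted p = 0.225), IER5 (-0.67, adjusted p = 0.173) and TBXAS1 (-0.72, adjusted p = 0.172). The members, the 33 gene lists (11 of cell type markers, 22 of pathways) and the tests were chosen with earlier results of these data known. In a list a gene stands by its probe set of highest mean. Lists were described by counts and medians without a set test. Group differences in 8 quality measures were tested by two-sided exact permutation (scipy 1.17.1). The fits were tested on simulated data. Figures were drawn with matplotlib 3.10.9. A planned search of promoter windows for motifs was not run, since no promoter sequences were used here.

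Alternatives were the replicate block, a filter that removed the 33.3% of probe sets with the lowest means, centred or quantile-normalized arrays, a trended robust prior, array weights, an ordinary statistic, covariates (28S/18S ratio, day or period by the labels' date, macrophage and smooth muscle marker means), each period alone and each pig left out. Counting a gene as passing by any of its probe sets was chosen after seeing the data.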

Additional observations from a re-analysis of the deposited data

Results flagged for a closer look

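Of 324 sets of 7 values examined, 28 had a highest or lowest pig whose gap to the next exceeded Dixon's 95% limit, where chance alone gives about 1 in 20. Sedentary pig 12_3 accounted for 8 of the 28. It was highest for the superoxide dismutase SOD2 (12.686), HSP90AA1 (13.622), the mast cell genes MS4A2 (7.043) and KIT (6.585), and for the means of adhesion molecules and cytokines (9.5779), antioxidant enzymes (10.806) and mast cell markers (6.814), and lowest for LOC100517502 (7.461).

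Exercised pig 15_4 accounted for 4, all lowest: ALDOC (8.911), FDFT1 (9.888), SERINC2 (7.43) and the mean of MHC and antigen presentation (11.774). In each of ALDOC, FDFT1 and SERINC2 this placed it nearest the sedentary animals. Exercised pig 10_1 was highest for KLF2 (8.407) and for the cell cycle mean (7.5796), pig 14_3 highest for SSH1 (6.95) and for the neutrophil mean (5.5883), and pig 11_3 lowest for DNAJA1 (10.064) and PTGFRN (7.029). Pig 12_5 was highest for SCAP (11.349) and pig 10_5 for the ubiquitin and proteasome mean (11.063).

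Among other sedentary pigs, 11_1 was lowest for FDFT1 (9.467) and HADH (11.057), 13_2 lowest for CYP51 (9.847) and highest for ITGA2B (7.835), 15_1 lowest for ALDOC (8.502), 17_1 highest for CHCHD3 (9.803), and 11_4 highest for the serpin and plasminogen activation mean (9.3817). Sedentary pig 10_2 had the highest 28S/18S ratio (1.79).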

How the results depend on the processing

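The number of passing probe sets (122) varied with the processing. With the replicate block it was 392 (245 higher, 147 lower), with the smooth muscle covariate 250 (136 and 114) and with an ordinary statistic 40 (27 and 13). With the macrophage covariate, itself lower in exercised pigs, it was 0 in either direction (2074 at an unadjusted p under 0.05). In the first 7 pigs it was 1 (1 and 0) and in the last 7 it was 0 (0 and 0). Leaving out each pig gave 9 to 268 in all, 3 to 183 higher and 6 to 85 lower. The other alternatives gave 98 to 178. The internal mammary count of 13 became 143 with the replicate block, and the interaction count of 0 ran from 0 to 1 without each pig. The cause of these shifts was not tested.

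Over named genes and alternatives, 2507 values kept direction and side of the threshold, 845 lost and 40 gained the call, and 16 changed sign, none of a passing gene. These were CIDEA (-0.0486) and ITGA2B (-0.0948) in the last 7 pigs, KIT there (0.0459) and with the macrophage covariate (0.0885), VCAM1 (-0.0749) and KLF4 (-0.00265) in the first 7 pigs, and with the macrophage covariate KLF4 (-0.136), SOX10 (-0.0277), S100A12 (0.101), SOD2 (0.632), EDN1 (0.0371) and MS4A2 (0.386). With each pig left out VCAM1 ran from -0.0323 to 0.300, KLF4 from -0.0278 to 0.172 and JCHAIN from -0.349 to 0.201. Counting any probe set of a gene as its call gave IFI44L, EGLN1 and CCT6A as added members of their lists. The number of arrays and the unknown signal over background limit what small changes of dim probe sets can show.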
